A study of Mus musculus with 8 samples.

Results

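Cadherins, claudins and the genes of desmosomes hold epithelial cells to one another. The genes described here were found by name on the array: cadherins (Cdh), claudins (Cldn), desmogleins (Dsg), desmocollins (Dsc), plakophilins (Pkp), zonula occludens genes (Tjp), catenins (Ctnna, Ctnnb, Ctnnd and names that begin with these letters), Ocln, Jup, Dsp and F11r. This name search found 105 of the array's 39429 non-control probes, which carry 78 gene names. Of these, 35 genes passed the filter on dim probes and were tested among 17316 genes in all.

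The study used NMuMG-NT2197, a line of mouse mammary epithelial cells, transfected with a pMSCV/hygro vector for ShcA, an adaptor protein that links tyrosine-phosphorylated receptors to downstream signalling. In 4 samples the vector carried ShcA R175Q, a mutant with glutamine in place of 1 arginine, and in the other 4, titled nT in the labels, it carried wild-type ShcA. Each sample is 1 array, on which amplified sample RNA in Cy3 was hybridized with a common Cy5 reference. The vector is common to all 8 samples, and no sample without added ShcA was analysed here. The labels do not say whether the 4 samples of a group came from separate cultures or clones, so the p-values measure only the spread between these samples, which may be technical. They also call the input microdissected, although the cells were cultured, and the reference mouse in one field and human in another.

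Cadherins are calcium-dependent adhesion receptors. At adherens junctions their tails bind catenins, which link them to actin. Claudins and occludin seal the tight junction and are held by the zonula occludens scaffolds, while desmogleins and desmocollins join through plakoglobin, plakophilins and desmoplakin to keratin filaments. Loss of E-cadherin (Cdh1) and of other junction genes, with a gain of N-cadherin (Cdh2), is a known feature of the epithelial-mesenchymal transition, and repressors of the Snail and Zeb families are known to bind the E-box CAGGTG in promoters of epithelial genes.

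To show where that E-box falls, the start-site windows of Ocln, the junction gene with the largest fall, and of 3 structural genes that did not pass the threshold, Dsp, Ctnnb1 and Jup, were read from RefSeq (GRCm38.p6). Each window is given 5′ to 3′ on the gene's strand from 250 bases before the start site to 30 after it, with the start site at base 251 and the E-box in capitals. They lie at chr13:100552689-100552968 on the minus strand, chr13:38151044-38151323 on the plus strand, chr9:120933150-120933429 on the plus strand and chr11:100397761-100398040 on the minus strand, in the order below.
Ocln: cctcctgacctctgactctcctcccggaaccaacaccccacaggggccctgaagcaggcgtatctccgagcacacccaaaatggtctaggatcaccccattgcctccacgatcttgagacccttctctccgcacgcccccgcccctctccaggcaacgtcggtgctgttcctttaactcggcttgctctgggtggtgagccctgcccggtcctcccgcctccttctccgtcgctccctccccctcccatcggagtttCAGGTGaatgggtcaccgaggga
Dsp: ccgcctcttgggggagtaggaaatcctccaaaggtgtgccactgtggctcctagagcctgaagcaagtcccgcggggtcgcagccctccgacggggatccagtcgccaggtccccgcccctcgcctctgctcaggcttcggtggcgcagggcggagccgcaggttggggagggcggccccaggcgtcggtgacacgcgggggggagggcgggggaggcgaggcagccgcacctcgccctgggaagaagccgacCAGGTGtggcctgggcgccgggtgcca
Ctnnb1: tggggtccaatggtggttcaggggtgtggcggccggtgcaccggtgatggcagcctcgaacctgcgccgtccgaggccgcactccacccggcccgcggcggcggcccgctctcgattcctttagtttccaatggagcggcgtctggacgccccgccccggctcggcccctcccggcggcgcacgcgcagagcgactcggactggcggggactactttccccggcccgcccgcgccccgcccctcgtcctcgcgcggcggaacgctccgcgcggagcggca
Jup: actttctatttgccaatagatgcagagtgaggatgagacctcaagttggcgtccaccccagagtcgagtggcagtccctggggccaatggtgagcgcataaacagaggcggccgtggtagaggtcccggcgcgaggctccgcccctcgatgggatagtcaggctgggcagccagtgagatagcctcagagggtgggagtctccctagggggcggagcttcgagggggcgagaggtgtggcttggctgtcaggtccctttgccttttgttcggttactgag
The Ocln window shown held 1 E-box, at base 258, and the Dsp window held 1, at base 254. RefSeq gives a second start-site window for Ocln, not shown, that overlaps the first and held 2. Of these, the one at its base 38 is the same site as base 258 of the window shown. The windows of Ctnnb1 and Jup held none. CAGGTG was searched on both strands, where it reads CACCTG on the other. Of the 78 gene names, 49 had a RefSeq window, among them 22 of the tested genes, and 10 of the 33 full windows of these 22 held the motif (30.3%). Among all 32851 windows of 300 bases in the table, 20.2% held it. Windows of a gene can overlap, as those of Ocln do, so a site can count more than once in these shares. The motif lay in windows of 8 of the 22 genes, among them Cldn6, Cldn7, F11r and Tjp3, which did not pass the threshold. Ocln was the only one of the 22 that passed, and Cdh1, Pkp1, Pkp2, Dsg2 and Cdh16 had no window. The windows therefore do not compare genes that fell with genes that did not. A match describes the letters only.

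The labelled epithelial identity was checked on markers of luminal cells, and the other cell types a mammary sample could hold were checked likewise. On every array 7 or 8 of 9 luminal genes were well above background, and 4 to 6 of 8 basal genes. Elf5, a luminal factor, was above background on none. Epcam, another luminal gene, lay far below the reference, with a mean log2 ratio of -5.07 in R175Q and -4.81 in wild-type arrays. In wild-type arrays, 6 of the 7 luminal genes tested lay above the reference. Of 12 endothelial genes, 8 were above background on no array, among them Cdh5 and Cldn5, the endothelial cadherin and claudin. Of 8 fibroblast genes, 7 were above background on every array but lay far below the reference, with a mean log2 ratio of -5.90 to -5.62 in R175Q arrays and -6.29 to -6.13 in wild-type arrays. Of 7 myeloid genes, 6 or 7 were above background on each R175Q array and 7 on each wild-type array. In wild-type arrays 2 of the 7 lay above the reference, among them Mrc1, with a mean log2 ratio of 4.45 (3.86 in R175Q arrays). Of 6 adipocyte genes, 1 to 3 were above background on an array. Whether cells of these kinds were present was not tested. The spread within groups was small over all genes, with correlations of 0.983 to 0.996 between arrays of a group. Shc1, the mouse gene of ShcA, differed by -0.11 ± 0.10 (log2, SE, adjusted p = 0.529), and whether its probe reads the added cDNA was not determined.

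Of the 35 junction genes tested, 1 was higher and 5 were lower in R175Q arrays at an adjusted p under 0.05 (limma, Benjamini-Hochberg over all 17316 genes). Pkp1 rose, and Ocln, Cdh16, Dsg2 and Pkp2 were among those that fell. This is 17.1% of the junction genes, beside 19.4% of all genes called in either direction, so their share lay near the background. The higher call stands against 9.64% of all genes and the lower calls against 9.72%. In 9 of the 35 genes the groups did not overlap, beside 23.9% of all genes. The median difference of the 35 was -0.06 on the log2 scale, beside -0.01 over all genes, and 29 of the 35 lay within 0.25 of 0. By family, 1 of 8 cadherins, 0 of 9 claudins, 0 of 6 catenins and catenin-like genes, 1 of 1 desmosomal cadherin and 2 of 6 desmosomal plaque genes were called by limma. At an unadjusted p under 0.05, no claudin and 1 catenin (Ctnnb1) passed.

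**Figure D1:**
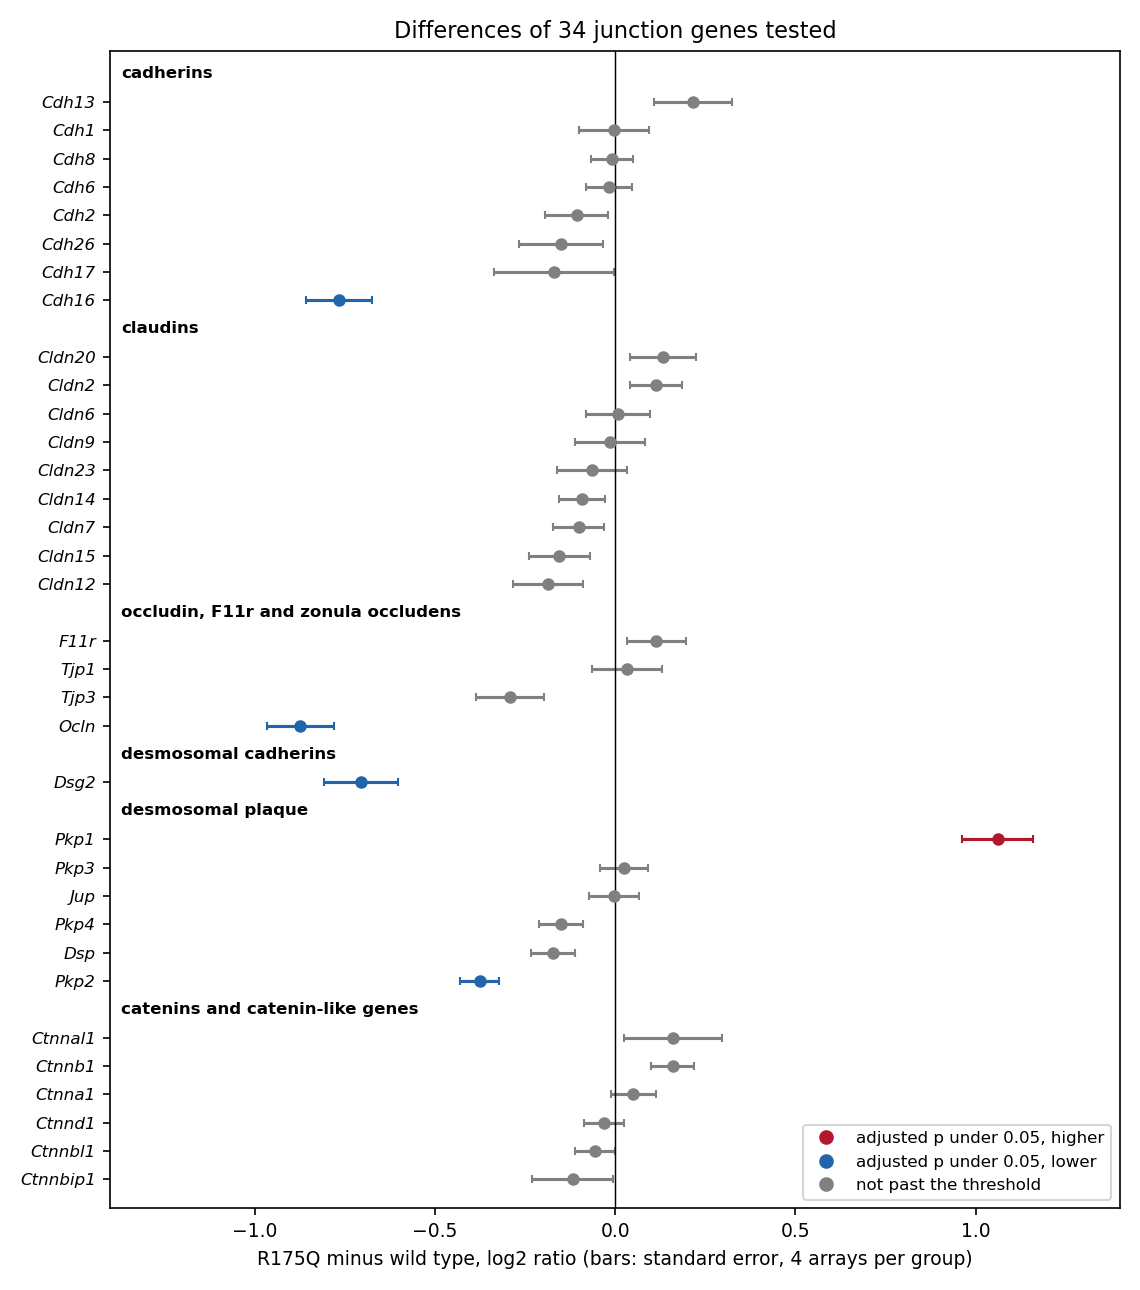
Difference of 34 of the 35 tested junction genes between R175Q and wild-type arrays, in log2 of the Cy3 over Cy5 ratio, by family, with bars of 1 standard error (4 arrays a group). Coloured points are genes past the threshold, with Pkp1 to the right of 0 and Ocln, Cdh16, Dsg2 and Pkp2 to the left.

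In the following, values are log2 of the sample over the reference, so 0 means a signal equal to the reference in that gene. They rank no gene's abundance above another's. Groups are given as R175Q and wild-type arrays in replicate order. Probe positions are those of the array files (mm9); exon or UTR placement was not determined here.

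Among the genes of the name search, the one with the largest fall was Ocln, the tight junction's transmembrane protein occludin (probe at chromosome 13, 101268529 to 101268588, minus strand). Its ratio was 2.00, 2.06, 2.02 and 2.20 in the R175Q arrays and 2.93, 2.72, 3.18 and 2.95 in the wild-type arrays. All 4 R175Q arrays lay below all 4 wild-type arrays. The difference was -0.87 ± 0.09 (SE, n = 4 a group, adjusted p = 0.000163), a level 1.83-fold lower. A second Ocln probe, not used for the gene's value, differed by -0.94 ± 0.10, with a reference above background on 2 of 8 arrays. Within the 3 slides that held both groups the difference was -0.86, -0.93 and -0.75. With the usual normexp background, fitted to all spots, Ocln was at -0.54 with an adjusted p of 0.318, so its call rests on how the background was set.

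Zonula occludens scaffolds tie occludin and claudins to actin. Tjp3 (ZO-3), far below the reference in both groups at -3.72 ± 0.18 and -3.42 ± 0.12 (SD, n = 4), differed by -0.29 ± 0.09 and missed the threshold (adjusted p = 0.0586). Its groups did not overlap, and without R175Q 1 it passed the threshold as lower. Its mean log2 Cy3 signal was low, at 6.88 in R175Q and 7.20 in wild-type arrays. Tjp1 (ZO-1) differed by 0.03, with a 95% interval of the difference of -0.18 to 0.25. F11r, which encodes the adhesion molecule JAM-A, differed by 0.11, with an interval of -0.07 to 0.30.

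No claudin passed. Claudins set which ions and solutes cross between cells, and 9 of 25 claudin names were bright enough to test. Their differences ran from -0.19 to 0.13, with a median of -0.06. Cldn7, the only claudin of the key list fixed for naming that was tested, was at -3.42 ± 0.11 in R175Q and -3.31 ± 0.08 in wild-type arrays (SD, n = 4). It lay well under the reference in both groups, and the groups overlapped. The difference was -0.10, with an interval of -0.26 to 0.06. Its Cy3 signal was low (mean log2 6.73 in R175Q and 6.67 in wild-type arrays), which limits what the interval can show. Cldn14, Cldn15 and Cldn23 were dimmer still in Cy3. Among the 16 other claudin names, 12 were not above background on any array, including Cldn1, Cldn3, Cldn5 and Cldn8. Cldn4 was above background on 1 array.

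In the desmosome, plakophilins differed in direction. Pkp1, a plaque protein of stratified epithelia that also occurs in the nucleus (chromosome 1, 137768027 to 137768086, minus strand), read 1.88, 1.86, 1.83 and 1.89 in R175Q arrays and 0.86, 0.58, 1.08 and 0.69 in wild-type arrays. The R175Q arrays lay close together (SD 0.03), and every one was above the highest wild-type array. It was the one junction gene that rose, by 1.06 ± 0.10 (SE, adjusted p = 6.38e-05), or 2.09-fold, with within-slide differences of 1.00, 1.00 and 1.20. Its call held with the usual normexp background at 1.03 (adjusted p = 0.00125).

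Pkp2, the plakophilin of simple epithelia and heart (chromosome 16, 16272648 to 16272707, plus strand), read -0.30, -0.35, -0.38 and -0.41 in R175Q arrays. The wild-type arrays read 0.03, -0.01, -0.03 and 0.08. The groups were apart by more than either group's own range. It fell by 0.38 on the log2 scale (SE 0.05, adjusted p = 0.000966), and with the usual normexp background by 0.39 (adjusted p = 0.0104). In the Cy3 channel alone it was at -0.25 and did not pass (adjusted p = 0.137). The Cy5 reference channel alone was higher in R175Q arrays, by 0.15, and did not pass either. Pkp3 differed by 0.03, with an interval of -0.12 to 0.17.

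Dsg2 (desmoglein-2, the widely expressed desmosomal cadherin) was the only one of 9 desmosomal cadherins bright enough to test. It read 1.07, 0.83, 0.97 and 0.68 in R175Q arrays and 1.57, 1.41, 1.80 and 1.59 in wild-type arrays. The groups did not overlap. The difference was -0.71 ± 0.10 (SE, adjusted p = 0.00104), a level 1.63-fold lower. A dimmer second probe, above background on 1 R175Q and 3 wild-type arrays and with a reference above it on none, differed by -0.42 and is given as a description only. For the probe used for the gene's value, the reference signal was above background on 6 of 8 arrays. With the usual normexp background the difference was -0.08 (adjusted p = 0.824). Dsc2, a desmocollin, was above background on no array.

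The plaque genes Dsp and Jup moved little in the ratio. Dsp (desmoplakin, which anchors keratin; chromosome 13, 38290121 to 38290180, plus strand) read 4.02, 4.01, 3.91 and 3.88 in R175Q arrays and 4.23, 4.10, 4.10 and 4.07 in wild-type arrays. All R175Q arrays were below the wild-type arrays, by a small margin. The difference of -0.17 ± 0.06 missed the threshold (adjusted p = 0.0814), but Dsp was lower in the Cy3 channel alone at -0.32 (adjusted p = 0.0261). Jup (plakoglobin, shared by desmosomes and adherens junctions) read 1.30, 1.22, 1.06 and 1.04 in R175Q arrays. In wild-type arrays it read 1.11, 1.21, 1.19 and 1.12, inside the R175Q range. The difference was 0.00, with an interval of -0.16 to 0.15.

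**Figure D2:**
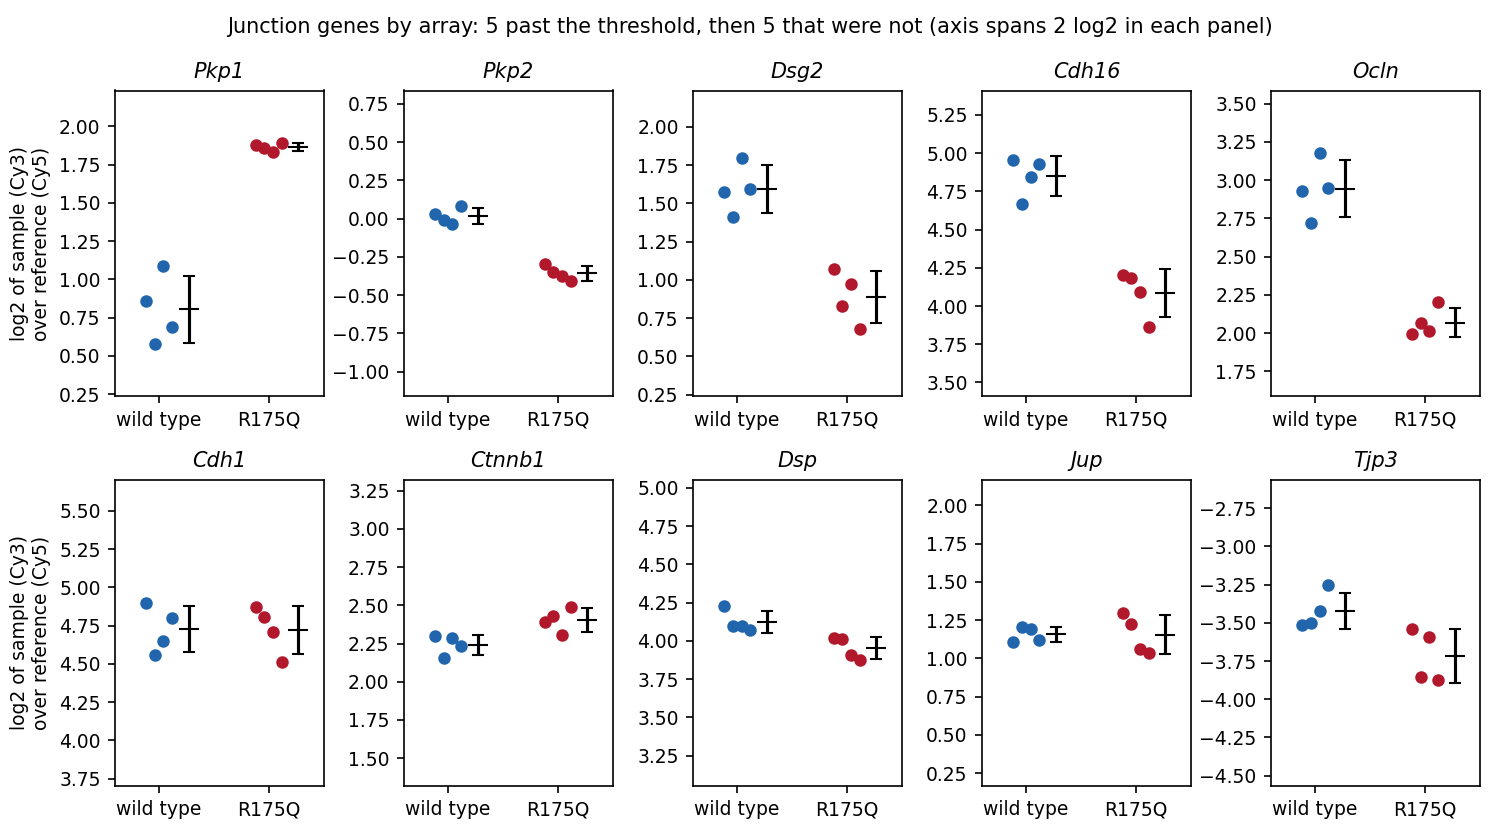
Log2 ratio of Cy3 sample over Cy5 reference on each of the 8 arrays for 5 junction genes past the threshold (Pkp1, Pkp2, Dsg2, Cdh16 and Ocln) and for Cdh1, Ctnnb1, Dsp, Jup and Tjp3, with the mean and SD (n = 4) beside the points. Each panel spans the same log2 width around its own level. The groups are apart in Pkp1, Ocln, Cdh16, Dsg2 and Pkp2 and overlap in Cdh1 and Jup.

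Of 24 cadherin names, 8 were tested. Cdh16 (kidney-specific cadherin, a cadherin with a short tail; chromosome 8, 107138101 to 107138160, minus strand) read 4.20, 4.18, 4.09 and 3.86 in R175Q arrays and 4.96, 4.66, 4.84 and 4.93 in wild-type arrays. All arrays were far above the reference and the groups did not overlap. The difference was -0.77 ± 0.09 (SE, adjusted p = 0.000332), a level 1.70-fold lower. With the usual normexp background it was -0.48 (adjusted p = 0.608).

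Cdh1 (E-cadherin, the main cadherin of epithelia; chromosome 8, 109193812 to 109193871, plus strand) read 4.87, 4.81, 4.71 and 4.51 in R175Q arrays. Wild-type arrays read 4.90, 4.56, 4.65 and 4.80. The groups covered the same range, and the difference of the ratios was 0.00 ± 0.10 (SE, adjusted p = 0.990), with an interval of -0.22 to 0.21. Cdh2 (N-cadherin) was at 0.96 ± 0.04 in R175Q and 1.06 ± 0.19 in wild-type arrays (SD, n = 4). Its difference of -0.11, with an interval of -0.30 to 0.09, did not pass. A second Cdh2 probe, tested among all probes, was lower by 0.19 (adjusted p = 0.0400). Cdh3 and Cdh11, the cadherins of basal epithelium and mesenchyme, were above background in Cy3 on no array, while the reference was above it on all 8.

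The channels were then taken one by one, each normalized between arrays by quantiles. The Cdh1 signal of the sample was 13.32, 13.27, 13.40 and 13.29 (log2 Cy3) in R175Q arrays and 14.01, 13.96, 14.19 and 14.03 in wild-type arrays. Every R175Q array lay below every wild-type array, with a difference of -0.73 ± 0.08 (SE, adjusted p = 8.90e-05). The Cy5 signal at the same spot, which comes from the common reference, ran from 9.13 to 9.43 in R175Q arrays and from 9.84 to 10.08 in wild-type arrays, again without overlap. It differed by -0.69 ± 0.08 (adjusted p = 0.0158), so that the ratio was equal although both channels were lower.

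The same held in part for other cadherins with a high ratio. Cdh16 differed by -1.25 in Cy3 (adjusted p = 3.34e-06) and by -0.40 in Cy5 (adjusted p = 0.0415). Cdh17 (liver-intestine cadherin, named here after its values were seen) differed by -1.07 in Cy3 (adjusted p = 0.000502) and by -0.82 in Cy5 (adjusted p = 0.0415). Its ratio differed by -0.17 ± 0.17 (adjusted p = 0.553), and its second probe, whose reference was above background on 1 array, by -0.89 (adjusted p = 0.0171 over all probes). These 3 were the only junction genes among the 21 genes past the threshold in Cy5 alone, which are 0.121% of all genes; in Cy3 alone 15% of all genes passed. For Ocln, in contrast, Cy3 differed by -1.02 (adjusted p = 8.91e-05) and Cy5 by -0.10. Pkp1 differed by 1.22 in Cy3 and 0.12 in Cy5.

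**Figure D3:**
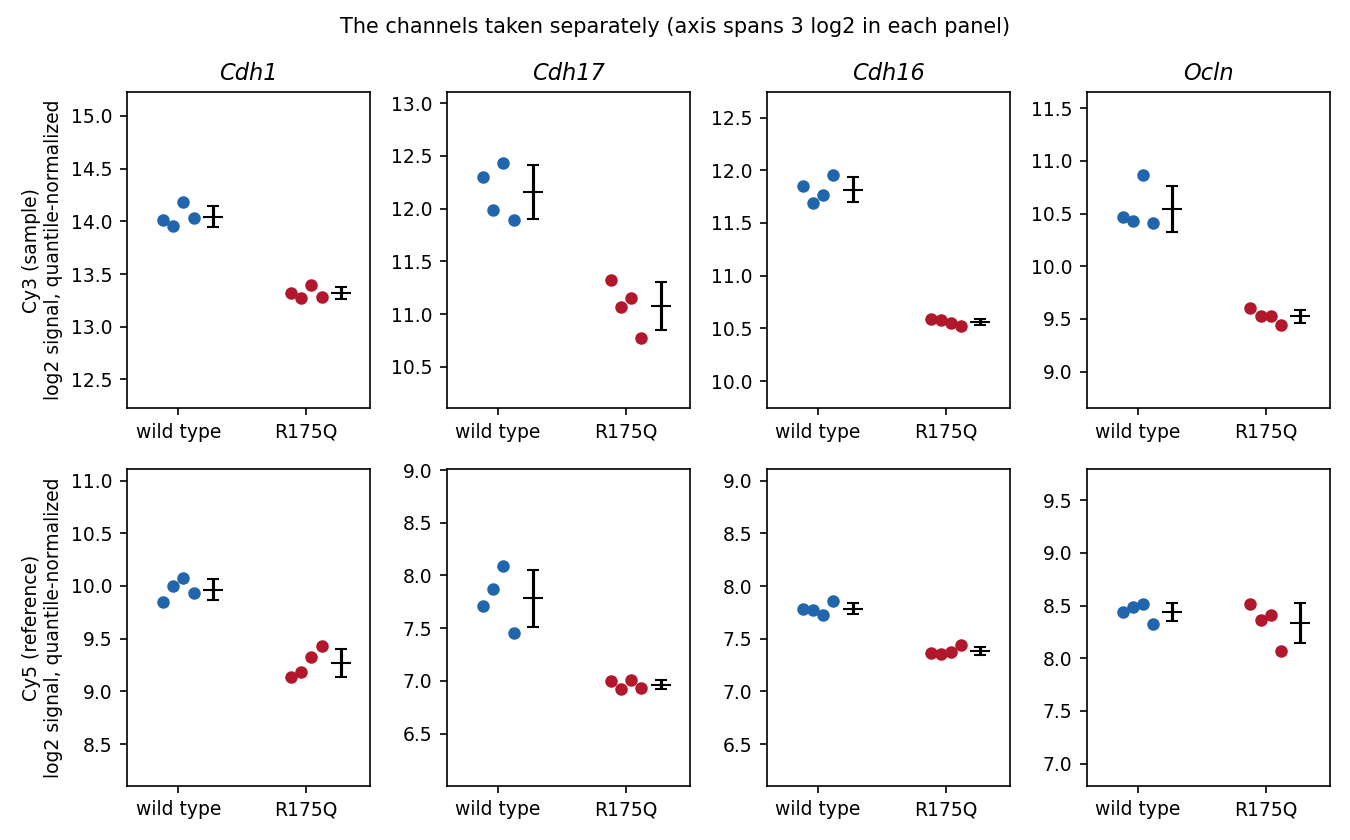
Normalized log2 signal of Cy3 (sample, upper row) and Cy5 (reference, lower row) for Cdh1, Cdh17, Cdh16 and Ocln on each of the 8 arrays, with the mean and SD (n = 4). In Cdh1, Cdh17 and Cdh16 the groups are apart in both channels, and in Ocln only in Cy3.

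Across all genes, the slope of the change in the reference channel on that in the sample channel was larger where a gene's sample signal exceeded its reference by more. As a description across genes, which are not independent replicates, the slope of the Cy5 difference on the Cy3 difference was 0.12 (r = 0.33) over 11442 genes with a mean log2 ratio between -1 and 1. It was 0.31 (r = 0.74) over 176 genes with a mean log2 ratio from 3 to 4, and 0.35 (r = 0.66) over 60 genes with a mean log2 ratio above 4. Of the junction genes, 5 had a mean ratio above 4 and 9 above 2. In Cdh1 and Cdh17 the Cy5 difference was larger than this slope gives. It was -0.69 beside -0.73 in Cy3 for Cdh1, and -0.82 beside -1.07 for Cdh17. Cdh16, at -0.40 beside -1.25, lay near the slope. The cause was not tested. For Cdh1, the ratio gave no difference and the Cy3 signal a lower level, and the arrays alone do not settle which applies.

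The catenins did not pass. Ctnnb1 (β-catenin, chromosome 9, 120869274 to 120869333, plus strand) read 2.39, 2.43, 2.30 and 2.49 in R175Q arrays and 2.30, 2.15, 2.29 and 2.23 in wild-type arrays. The R175Q arrays were all higher, the closest pair by under 0.01. The difference of 0.16 ± 0.06 missed the threshold (adjusted p = 0.101). With the channels taken separately, Ctnnb1 differed by -0.07 in Cy3 and by -0.22 in Cy5, neither past the threshold. The sample signal by itself was thus not higher in R175Q arrays. Ctnna1 (α-catenin) differed by 0.05, with an interval of -0.09 to 0.19. Ctnnd1 (p120-catenin, which holds cadherins at the membrane) differed by -0.03, with an interval of -0.15 to 0.09 on its brightest probe. Another Ctnnd1 probe differed by 0.02. A dimmer one differed by -0.39, but it was above background on 2 R175Q and 4 wild-type arrays, and its reference on 4 of 8.

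Of the 43 names that were not tested, 29 had no probe above background in Cy3 on any array and 14 had 1 on 1 to 3 arrays. For 20 of the 29, the reference was not above background either, and for 3 it was above on all 8 arrays. Every gene of the desmosomal plaque and of the occludin, F11r and zonula occludens group was tested, whereas 8 of 9 desmosomal cadherins and 16 of 24 cadherins were not. The other tested genes not described one by one, 5 cadherins (Cdh17 among them), 8 claudins, 3 catenin-like genes and Pkp4, differed by -0.19 to 0.22.

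The processing moved these calls. The usual normexp background kept the calls of Pkp1 and Pkp2 and lost the other 4, those of Ocln, Cdh16 and Dsg2 among them. It also called 890 of all genes in place of 3353. Its fitted Cy3 background lay between -690 and -0.37 on the 8 arrays, while the medians of the negative controls were 13.1 to 22.7. An earlier account of these arrays, known beforehand, had given such a gap, and this is why the negative controls were used. Apart from that background, the calls of Ocln, Cdh16, Dsg2 and Pkp1 held under every other single alternative run on the ratio or on the Cy3 signal, and without each array in turn.

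**Figure D4:**
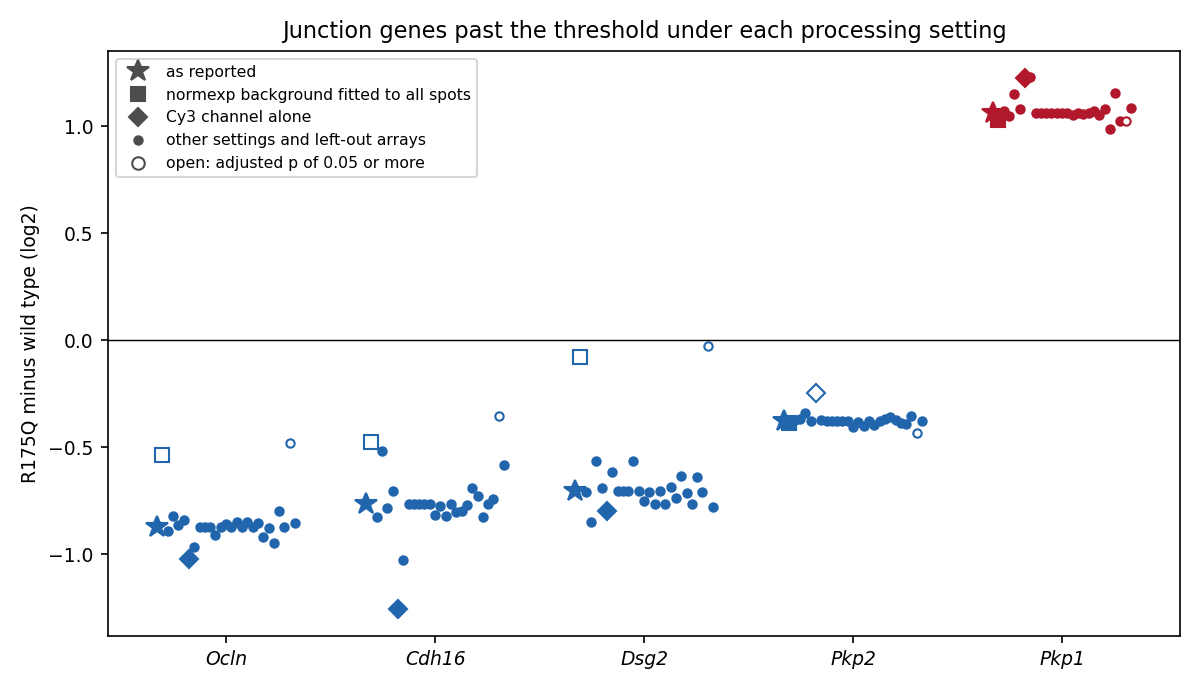
Difference of 5 of the called junction genes under each processing setting and without each array, in log2. Filled marks have an adjusted p under 0.05 and open marks do not. Apart from the Cy3 channel alone, at 1.22 and -0.25, Pkp1 stays near 1.06 and Pkp2 near -0.38, while Ocln, Cdh16 and Dsg2 shrink with the background fitted to all spots (open squares).

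Genes that work with these junctions were read from lists. Each count below is over genes tested, beside the 9.64% of all genes that rose and 9.72% that fell. Of 15 genes of the polarity complexes, which place the tight junction at the apical border, 8 fell and none rose, with a median of -0.23. They included Crb3 (-0.85 ± 0.10, SE, adjusted p = 0.000245), Llgl2 (-0.73), Pard6b (-0.65) and Mpp5 (Pals1, -0.43). With the usual normexp background 1 of the 15 fell. Of 14 tight junction partners, 4 fell and 1 rose, with a median of -0.10. Lsr, which recruits tricellular junction proteins, fell by 0.95 on the log2 scale (SE 0.07, adjusted p = 1.29e-05), Cgn (cingulin) by 0.29 and Amotl2 (angiomotin-like) by 0.27. Jam2, a junctional adhesion molecule typical of endothelium, rose by 0.67. With the usual background 1 of them fell and 1 rose. Without R175Q 1, R175Q 4 or wild type 2, and with slide or scan day as a fixed block, 2 fell.

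Of 17 adherens junction partners, 5 fell and 1 rose. Plekha7, which binds p120-catenin at the zonula adherens, fell by 1.14 (SE 0.13, adjusted p = 0.000254), its microtubule partner Camsap3 by 0.76 and the phosphatase Ptprf by 0.59. Nectin1, an adhesion receptor of the immunoglobulin family, rose by 0.60. The list's median was -0.07. Of 12 partners of the desmosome and cornified envelope, 4 fell and 1 rose, with a median of 0.02. Periplakin (Ppl) fell by 0.74, Perp by 0.41 and keratin 8 (Krt8) by 0.31, while envoplakin (Evpl) rose by 0.45. With the usual background 3 fell and the call of Evpl was lost, and with scan day as a block 2 fell. Of 8 gap junction genes 2 fell, among them Gjc1 by 0.69, and with the usual background limma called 0 of them, also at an unadjusted p. Without R175Q 3, R175Q 4, wild type 1 or wild type 4, 1 of the gap junction genes fell. Among 7 proteases and inhibitors, 1 fell, the inhibitor Spint2 by 0.39.

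Of 10 repressors of epithelial genes tested, 5 rose and 1 fell, with a median of 0.23. Foxc2 rose by 0.74 ± 0.10 (SE, adjusted p = 0.000683), Twist2 by 0.69 and Snai1 by 0.42. Snai3 fell by 0.73. Snai3 was above background on 1 R175Q and 4 wild-type arrays, and Twist1 on none. Without R175Q 3, R175Q 4, wild type 1, wild type 2 or wild type 4, and with slide as a fixed block, 3 rose. With the usual normexp background 2 of these rose and none fell. Of 14 factors that keep epithelial transcription or splicing, 5 fell, among them Esrp2 (0.76, adjusted p = 4.76e-05), Foxa1 (0.36), Grhl1 (0.32) and Ehf (0.25). Ehf was above background on 2 R175Q and 4 wild-type arrays, and with the filter on all 8 arrays 4 of 13 fell. The count was 2 without R175Q 4, wild type 1 or wild type 4, and 3 without R175Q 1, R175Q 3 or wild type 2; with slide as a fixed block 3 fell and 1 rose, as with scan day. With the usual background limma called 0 of the 14, and 1 at an unadjusted p under 0.05.

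**Figure D5:**
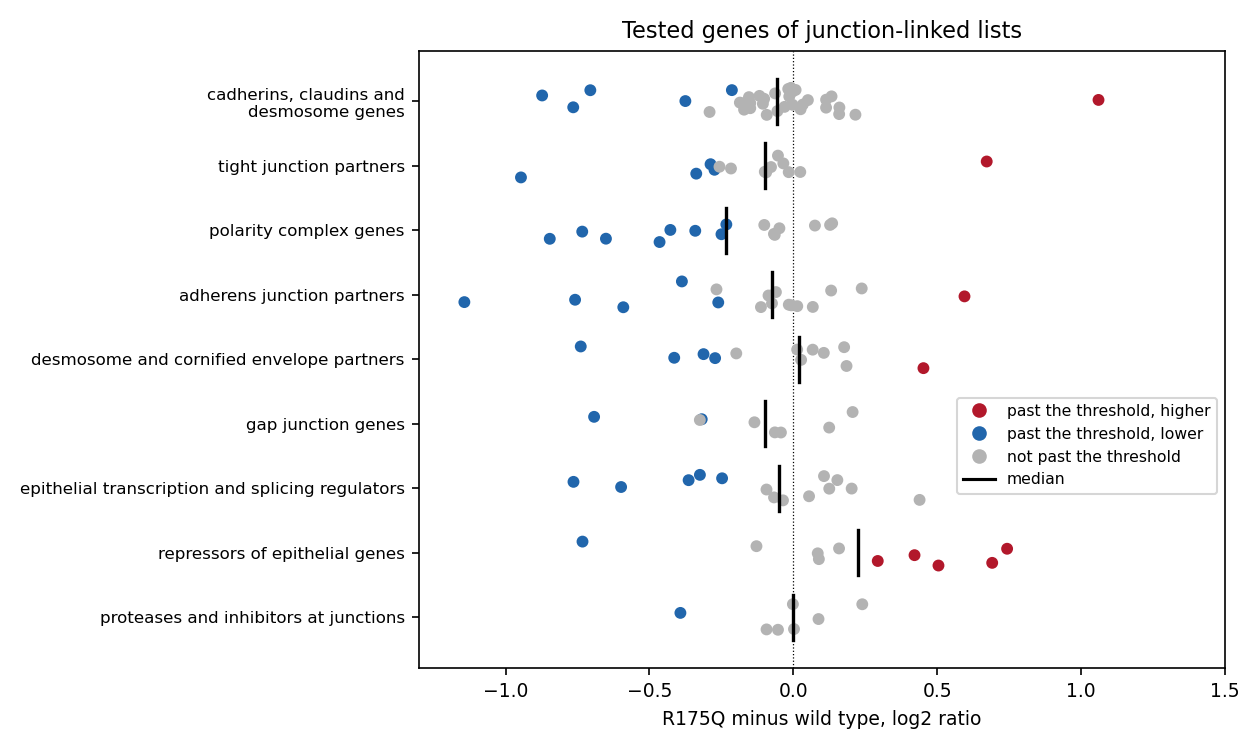
Difference between R175Q and wild-type arrays of each tested gene (points) in the junction genes and in 8 lists of linked genes, in log2, with the list's median as a bar. The polarity complexes lie mostly to the left of 0, with a median of -0.23, and the repressors of epithelial genes mostly to the right, with a median of 0.23.

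Cell type markers moved beside these groups, and their part in the results was not tested. Of 7 luminal genes tested, 5 fell, with a median of -0.31, keratin 7 (Krt7) by 1.89 ± 0.06 (SE, adjusted p = 1.27e-07), Muc1 by 0.51, Krt19 by 0.40 and Krt8, also a desmosome partner, by 0.31. With slide as a fixed block 2 fell, and with scan day as a block or the usual normexp background 3. Their mean log2 ratio on an array was 0.26 to 0.36 in R175Q and 0.66 to 0.77 in wild-type samples. Of 5 basal genes limma called 0, with 1 at an unadjusted p under 0.05. Of 7 fibroblast genes 4 rose, with a median of 0.39: Pdgfrb by 1.19, Dcn by 0.72, Col1a2 by 0.58 and Col3a1 by 0.39. With the usual normexp background limma called 0 of the 7, with 1 at an unadjusted p under 0.05, and their median turned to -0.28. Of 4 endothelial genes 1 rose (Vwf, 0.85), of 7 myeloid genes 1 fell (Mrc1, by 0.59) and of 3 adipocyte genes 1 fell (Fabp4, by 1.00). In bulk RNA, fewer cells of a kind and less RNA per cell cannot be told apart.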

How the data were processed

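Each array was deposited as Agilent Feature Extraction output (version 9.5.3.1, per the file headers): spot intensity in Cy3 and Cy5, and the scanner software's log10 ratio. The authors' deposited value table holds log2-like ratios; its scaling and centring stay unknown (medians 0.0526 to 0.0617, r = 0.902 to 0.941 with the scanner ratio). Both served as alternatives.

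Mean minus background-median intensity was corrected by normexp with each array's and channel's background from the 153 negative controls (offset 50), then loess-normalized within arrays. Outlier spots were dropped and spots averaged per probe. Probes whose Cy3 signal was well above background on 4 or more of the 8 arrays were kept, 1 per gene (the brightest). R175Q and wild type were compared by limma 3.58.1 (R 4.3.3, two-sided, Benjamini-Hochberg, adjusted p under 0.05). The code was also run on simulated ratios with independent noise and planted changes. That simulation held no slide, scan-day, dye or background effect, so it cannot speak to those. Arrays, having no counts, limit precision by their number.

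Of 105 probes, 92 were named by RefSeq accession. The array names Cldn26, Cldn27 and Cdh29 have the current symbols Tmem114, Tmem235 and Cdhr4. They are counted here under their array names, and none of them was tested. Genes named in full were those called, a fixed list of key junction genes, and up to 4 called genes of lowest adjusted p per other list; others are named after their values were seen. The members, the lists and the background method were chosen with earlier results of these data known. Slide, scan day, replicate number, background, normalization, filter, probe choice and left-out arrays were alternatives. R175Q 1 was the only array on its slide and of its scan day. With either as a fixed block it adds nothing to the group difference. Whether replicate numbers pair samples is not known. Same-numbered arrays deviated together unevenly (r = 0.02 to 0.56), and the main fit used no pairing. Some called genes are counted but not reported here.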

Additional observations from a re-analysis of the deposited data

Results flagged for a closer look

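In Ctnnd1, R175Q 3 stood apart from its group at a log2 ratio of 1.23, where the other 3 arrays lay between 1.36 and 1.37. In the same gene wild type 1 stood apart at 1.41, where the other 3 lay between 1.34 and 1.35. Both were the only ones of 36 groups of 4 arrays examined in which the outer array's gap exceeded Dixon's limit at the 95% level, and chance sets about 1 in 20 such groups apart.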

How the results depend on the processing

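The count of junction genes higher in R175Q was 1 and that of lower genes 5. With the normexp background fitted to all spots the lower count was 1 (Pkp2), and with every probe on its own it was 8, adding Cdh17, Cdh2 and Ctnnd1, the last on a probe above background on 2 R175Q arrays. With that background and slide as a block, chosen after seeing the data, limma called 0 higher and 0 lower, with 4 at an unadjusted p under 0.05, and 6 of all genes. Without each array in turn the higher count ran from 1 to 2, with Cdh13 added without wild type 3, and the lower count from 4 to 5. The median difference kept its sign under every alternative. With the replicate number as a block, 1 higher and 4 lower genes were called, and all genes called rose from 3353 to 3993; same-numbered arrays deviated together with r = 0.32, 0.02, 0.56 and 0.11. With slide as a fixed block 4 lower genes were called, and slide as a random block (correlation 0.126) added Tjp3 as lower. The Cy3 channel alone lost Pkp2 and added Cdh1, Cdh17 and Dsp as lower. No direction of a called gene reversed. Signal near background limits Dsg2 and 43 names that could not be tested.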
